A study of Mus musculus with 9 samples.

Results

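The glucocorticoid receptor gene Nr3c1 and 7 genes that the receptor is known to switch on (Fkbp5, Tsc22d3, Sgk1, Zbtb16, Dusp1, Klf9 and Cdkn1a) were examined in rat liver. The genes were chosen by name: a gene belonged to the set when the gene name in the count table equalled 1 of these 8 symbols. A row was found for 7 of the 8 among the 19686 genes of the table, and Nr3c1 was not analysed here, so the values below are those of the 7 target genes and not of the receptor itself. The table gives rat Ensembl identifiers and no positions.

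RNA was sequenced from the livers of 9 male Wistar rats, 3 in each of the control, model and DSS groups. The study asked how fructose feeding disturbs metabolism and whether Danggui-Shaoyao-San (DSS), a traditional Chinese formula of several herbs, counters this. Control rats drank purified water, and rats of the model and DSS groups drank water with 15% fructose for 8 weeks. The DSS group was also given DSS by gavage, and the control and model groups were given saline in its place. The study's methods state that transcriptomics was done on the rats given the extract made with 50% methanol at 1.8 g/kg, so the label DSS was read as that extract. All rats were fasted for 12 h and anaesthetised with 5% chloral hydrate before the liver was taken, and they were kept under 12 h of light and 12 h of dark. The time of day at which the livers were taken is not given in the sources used here. Fructose feeding is a dietary model of the metabolic syndrome, and no group received a glucocorticoid or a receptor blocker.

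Glucocorticoids (corticosterone in the rat) enter the cell and bind a receptor that is held in the cytoplasm by heat shock proteins and their helpers. The bound receptor moves to the nucleus, where it binds DNA next to genes such as those examined here and raises their transcription, and it lowers transcription of many inflammatory genes. In the liver it is known for driving gluconeogenesis and amino acid breakdown during fasting, and its hormone follows a daily rhythm. Several of its targets also answer to other signals, such as the circadian clock, insulin, growth factors or p53.

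The libraries held between 14345819 and 26837227 counts. Levels are given in CPM (a gene's share of the library's counts, scaled to a common total with the TMM factors of edgeR), and a difference is given as a log2 fold change with its standard error (SE) from edgeR's quasi-likelihood test on the 6 libraries of the groups compared. A gene was called when its log2 fold change was at least 0.5 in size and its FDR (the Benjamini-Hochberg adjusted p over all genes tested) was at most 0.01. The model group enters both comparisons with it, and so do the control and DSS groups, so the 3 comparisons are not independent of each other. The first principal component of all expressed genes (25.2% of the variance) placed the 3 groups apart, with scores from −35.1 to −27.2 in control, from 1.02 to 9.21 in model and from 21.8 to 34.7 in DSS. On the second component (23.0%) model replicate 1 lay apart at −59.0, while the other 8 libraries lay between −16.4 and 20.1. Hepatocyte markers were abundant, as the liver label requires: Alb, Apoa1, Ttr, Tf, Fgb, Serpina1 and Cps1 summed to between 139139 and 225566 CPM in the 9 libraries.

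Among the 7 target genes, Tsc22d3 was 2.43-fold lower in the model group than in the control group at an FDR of 0.05, and Klf9 was 3.23-fold higher in the DSS group than in the control group at an FDR of 0.01. Fkbp5 ranged from 15.7 to 23.0 CPM across the 9 rats, and the rats of Sgk1, Zbtb16, Dusp1 and Cdkn1a overlapped between groups in each comparison. In model against control, 0 of the 7 genes were called by edgeR at an FDR of 0.01, where 0.0801% of all genes tested were called. At an FDR of 0.05, 1 gene (Tsc22d3) was called, against 0.601% of all genes. At an unadjusted p under 0.05 edgeR gave 2 genes (Tsc22d3 and Sgk1, both lower), against 13.2% of all genes. DESeq2 called 1 gene (Tsc22d3), against 2.05%. The groups did not overlap for 2 genes (Fkbp5 and Tsc22d3), against 21.1% of all genes.

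In DSS against model, 0 of the 7 genes were called by edgeR at either FDR, where 0.136% of all genes were called at 0.01 and 0.456% at 0.05. At an unadjusted p under 0.05 edgeR gave 2 genes (Sgk1 and Klf9, both higher), against 8.02% of all genes, and DESeq2 called 0 of the 7, against 1.18%. Klf9 was the 1 gene whose groups did not overlap, against 13.9% of all genes. In DSS against control, Klf9 was called at an FDR of 0.01, where 1.48% of all genes were called, and it remained the 1 gene called at 0.05, against 6.36%. At an unadjusted p under 0.05 edgeR gave 2 genes (Klf9 and Cdkn1a, both higher), against 24.3% of all genes. DESeq2 also called Klf9 alone, against 6.09% of all genes, and Klf9 was again the 1 gene without overlap, against 30% of all genes. The median log2 fold change of the 7 genes was 0.43, 0.20 and 0.51 in the 3 comparisons in this order, beside −0.00, 0.00 and −0.01 over all genes tested. With 3 rats against 3, an exact permutation test on a single gene cannot give a p under 0.1, so the tests below rest on the spread that edgeR estimates across genes.

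**Figure D1:**
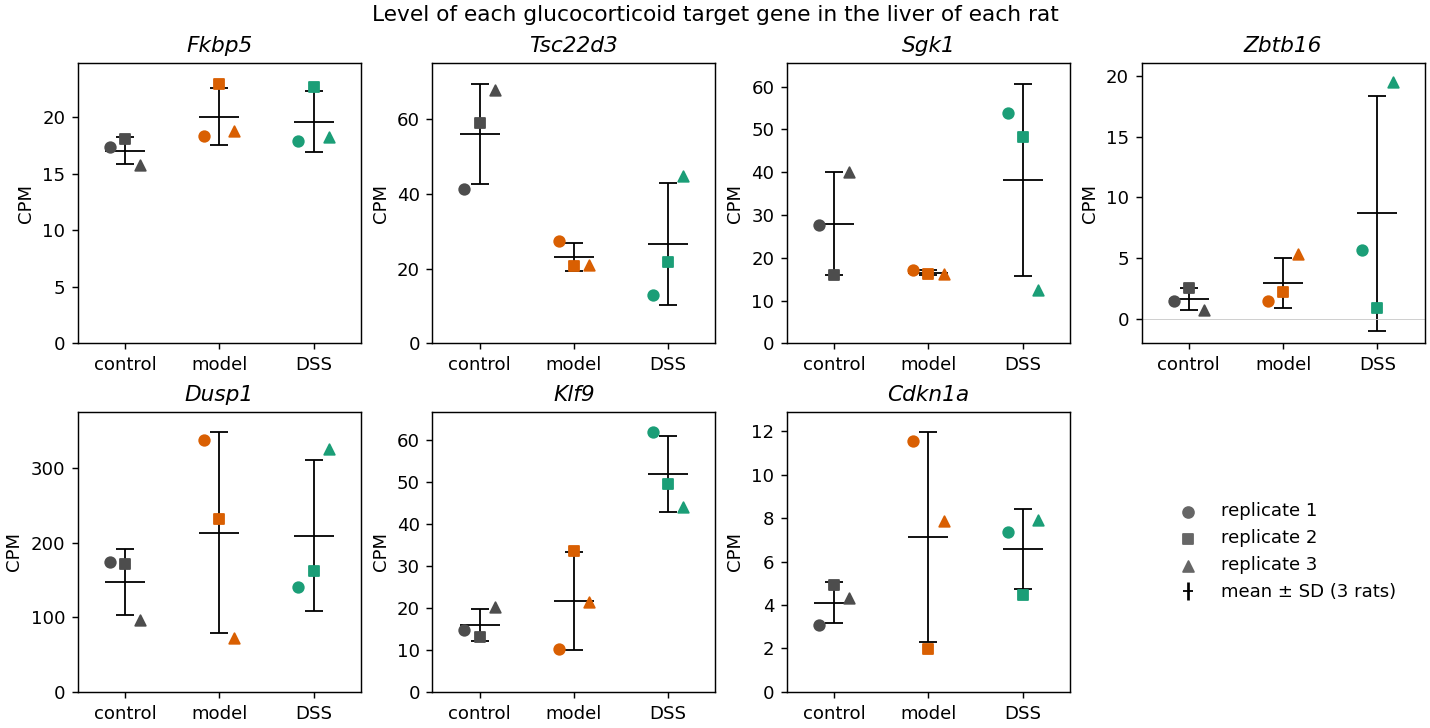
Level in CPM (y axis, linear) of the 7 target genes in each rat of the control, model and DSS groups; each point is 1 rat, with replicates 1 to 3 drawn as circles, squares and triangles, and the bars give the mean ± SD of 3 rats. The 3 model rats lie below the 3 control rats for Tsc22d3, the 3 DSS rats lie above all other rats for Klf9, and the lower SD bar of Zbtb16 in the DSS group reaches below 0 because the mean rests on 1 high rat.

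Fkbp5 (ENSRNOG00000022523) encodes FKBP51, a co-chaperone that lowers the hormone affinity of the receptor complex and that the receptor itself induces, which makes it a widely used readout of receptor activity. Its level was 17.3, 18.1 and 15.7 CPM in the 3 control rats. It was 18.4, 23.0 and 18.8 CPM in the model rats and 17.9, 22.7 and 18.3 CPM in the DSS rats. The model rats all lay above the control rats, though the lowest model rat and the highest control rat were close, and the DSS rats overlapped both other groups. The means were 17.1 ± 1.19, 20.1 ± 2.53 and 19.6 ± 2.67 CPM (SD, n = 3 each). The log2 fold change was 0.23 (SE 0.150, 95% interval −0.11 to 0.57) in model against control and −0.02 (SE 0.165, interval −0.40 to 0.36) in DSS against model. Against control, the DSS group gave 0.20 (SE 0.134, interval −0.11 to 0.50), and the FDR was 0.557, 0.979 and 0.411 in this order. These intervals leave room for changes of up to about 0.57 on the log2 scale, so small differences were not detectable with 3 rats a group. Fkbp5 was the steadiest of the 7 genes: its SD within groups was 0.16 on the log2 scale, beside a median of 0.26 over 12832 expressed genes, and 20.5% of these genes had a smaller SD.

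Tsc22d3 (ENSRNOG00000056135) encodes GILZ, a leucine zipper protein that holds back NF-κB and AP-1 and passes on part of the anti-inflammatory action of glucocorticoids. It was measured at 41.3, 58.8 and 67.7 CPM in the control rats and at 27.3, 20.7 and 21.1 CPM in the model rats. In the DSS rats it was 13.1, 21.8 and 44.6 CPM. All model rats lay below all control rats, and the DSS group ran from below the model rats into the range of the control rats through replicate 3. The mean fell from 55.9 ± 13.4 CPM in control to 23.0 ± 3.71 CPM in model, a log2 fold change of −1.28 (SE 0.213, interval −1.77 to −0.79) or a level 2.43-fold lower. The FDR was 0.0449 with edgeR and 1.83e-05 with DESeq2, so the difference passed 0.05 with both tools and 0.01 with DESeq2 alone. With 1 rat left out at a time, the log2 fold change stayed between −1.46 and −1.11. The edgeR FDR was then 0.0378 without control replicate 1 and 0.0431 without model replicate 1, and it was above 0.05 without any of the other 4 rats (0.151 without control replicate 2, 0.148 without control replicate 3, 0.0788 without model replicate 2 and 0.155 without model replicate 3). With all 9 libraries in 1 fit the FDR was 0.149.

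The DSS group had a Tsc22d3 mean of 26.5 ± 16.3 CPM. Against model the log2 fold change was 0.20 (SE 0.391, interval −0.70 to 1.10, FDR 0.933), and against control it was −1.08 (SE 0.483, interval −2.30 to 0.13, FDR 0.246). Without DSS replicate 3 these became −0.39 (FDR 0.818) and −1.67 (FDR 0.0380), so this rat turned the direction of the first and decided whether the second passed an FDR of 0.05. Tsc22d3 is also abundant in lymphocytes and macrophages, and the 11 measured of 12 leukocyte and Kupffer cell markers summed to 348 to 868 CPM in control, 255 to 581 CPM in model and 388 to 531 CPM in DSS, with none of them at 0 in a whole group. In model against control 9 of the 10 markers tested had a negative log2 fold change, and edgeR called 0 at an FDR of 0.05, against 0.601% of all genes. At an unadjusted p under 0.05 edgeR gave 1 lower, against 13.2%, and DESeq2 called 0, against 2.05%. Their part in the level of Tsc22d3 was not tested. In bulk liver, fewer cells of a type and less RNA per cell cannot be told apart.

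Dusp1 (ENSRNOG00000003977) encodes MKP-1, a phosphatase that switches off p38 and JNK and is induced both by glucocorticoids and, within minutes, by stress and growth factors. Its level was 173, 172 and 95.8 CPM in the control rats, 338, 231 and 71.7 CPM in the model rats and 141, 162 and 326 CPM in the DSS rats. The 3 groups overlapped, since both the highest and the lowest of the 9 rats were model rats. The means were 147 ± 44.3, 214 ± 134 and 209.6 ± 101 CPM. The log2 fold changes were 0.54 (SE 0.496, interval −0.61 to 1.69, FDR 0.688) in model against control and −0.02 (SE 0.525, interval −1.23 to 1.19, FDR 0.996) in DSS against model. The value for DSS against control was 0.51 (SE 0.393, interval −0.46 to 1.47, FDR 0.489). Without model replicate 1 the first became 0.03 (FDR 0.991), and without DSS replicate 3 the last became 0.05 (FDR 0.927), so each positive value rested on 1 rat.

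Sgk1 (ENSRNOG00000011815) encodes a serum- and glucocorticoid-induced kinase that also answers to mineralocorticoids, insulin and cell volume. It was measured at 27.7, 15.996 and 40.1 CPM in the control rats. The 3 model rats were almost equal at 17.2, 16.1 and 16.3 CPM, and the DSS rats were at 53.8, 48.3 and 12.4 CPM. The first and second DSS replicates exceeded all other rats and the third was the lowest of the 9, so the DSS group overlapped both others. The means were 27.96 ± 12.1, 16.5 ± 0.623 and 38.2 ± 22.5 CPM, and the SD on the log2 scale was 0.05 in model and 1.18 in DSS. In model against control the log2 fold change was −0.76 (SE 0.294, interval −1.43 to −0.08), with an unadjusted edgeR p of 0.0320 and an FDR of 0.320. For DSS against model it was 1.21 (SE 0.462, interval 0.15 to 2.28), with an unadjusted edgeR p of 0.0304 and an FDR of 0.560. For DSS against control it was 0.44 (SE 0.642, interval −1.20 to 2.09, FDR 0.737). Without DSS replicate 3, DSS against model was 1.64 with an FDR of 0.0156, which passed 0.05 and not 0.01. Leaving out any other rat of that comparison gave between 0.87 and 1.24 with an FDR of at least 0.502.

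Zbtb16 (ENSRNOG00000029980) encodes PLZF, a zinc finger repressor that is switched on strongly by glucocorticoids in many tissues and takes part in hepatic gluconeogenesis. It was a low gene here, with between 11 and 375 counts per library. Its level was 1.49, 2.56 and 0.731 CPM in the control rats, 1.42, 2.18 and 5.29 CPM in the model rats and 5.63, 0.863 and 19.5 CPM in the DSS rats. The DSS group spanned the range of the control rats and far above it, with its highest rat 22.6 times its lowest. The means were 1.59 ± 0.918, 2.97 ± 2.05 and 8.67 ± 9.68 CPM. The largest fitted difference among the 7 genes was that of Zbtb16 in DSS against control, 2.43 on the log2 scale, and its interval of −0.54 to 5.40 (SE 1.16, FDR 0.281) included 0. Without DSS replicate 3 it was 1.03 (FDR 0.514). DSS against model gave 1.56 (SE 0.930, interval −0.58 to 3.71, FDR 0.773), which fell to 0.15 without that rat, and model against control gave 0.88 (SE 0.586, interval −0.47 to 2.22, FDR 0.566). Zbtb16 had an SD within groups of 1.45 on the log2 scale, and 99.6% of the expressed genes had a smaller one.

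Klf9 (ENSRNOG00000014215) encodes a Krüppel-like transcription factor that is a direct target of the glucocorticoid and thyroid hormone receptors, oscillates with the clock and raises gluconeogenic transcription in hepatocytes. Its level was 14.7, 13.0 and 20.3 CPM in the control rats and 10.3, 33.6 and 21.3 CPM in the model rats. In the DSS rats it was 61.8, 49.6 and 44.1 CPM. All DSS rats lay above all 6 other rats, and the model and control groups overlapped. The means were 15.99 ± 3.81, 21.7 ± 11.7 and 51.8 ± 9.07 CPM. Klf9 rose by 1.69 on the log2 scale in DSS against control (SE 0.191, interval 1.26 to 2.13), a level 3.23-fold higher, with an FDR of 0.00244 with edgeR and 1.29e-13 with DESeq2. Leaving out 1 rat at a time gave log2 fold changes from 1.55 to 1.90 and FDRs from 0.00139 to 0.0171, and the FDR was above 0.01 without control replicate 1 (0.0171) alone. With all 9 libraries in 1 fit the FDR was 0.0365, which passed 0.05 and not 0.01.

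In DSS against model the log2 fold change of Klf9 was 1.27 (SE 0.373, interval 0.41 to 2.13), a level 2.41-fold higher. The unadjusted edgeR p was 0.00946 and the FDR 0.384, and the DESeq2 FDR was 0.0371, so the difference did not pass the threshold of 0.01 with either tool. It was 0.92 without model replicate 1, the lowest model rat, and 1.72 without model replicate 2, the highest, with FDRs of 0.303 and 0.120. Model against control gave 0.43 (SE 0.385, interval −0.46 to 1.32, FDR 0.677). This value was −0.02 without model replicate 2 and 0.77 without model replicate 1, so its direction rested on single rats.

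Cdkn1a (ENSRNOG00000000521) encodes p21, an inhibitor of cyclin-dependent kinases that is induced by p53 and, in several cell types, by glucocorticoids. With 31 to 268 counts per library it was measured at 3.09, 4.94 and 4.32 CPM in the control rats, 11.5, 1.99 and 7.88 CPM in the model rats and 7.36, 4.48 and 7.91 CPM in the DSS rats. The model group held both the highest and the lowest rat, and the DSS group overlapped the control group through replicate 2. The means were 4.12 ± 0.939, 7.13 ± 4.81 and 6.58 ± 1.84 CPM. The log2 fold change in DSS against control was 0.68 (SE 0.268, interval 0.08 to 1.28), with an unadjusted edgeR p of 0.0305 and an FDR of 0.157. In model against control it was 0.81 (SE 0.542, interval −0.44 to 2.06, FDR 0.566), which became 0.26 (FDR 0.879) without model replicate 1, and in DSS against model it was −0.12 (SE 0.534, interval −1.36 to 1.11, FDR 0.972).

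**Figure D2:**
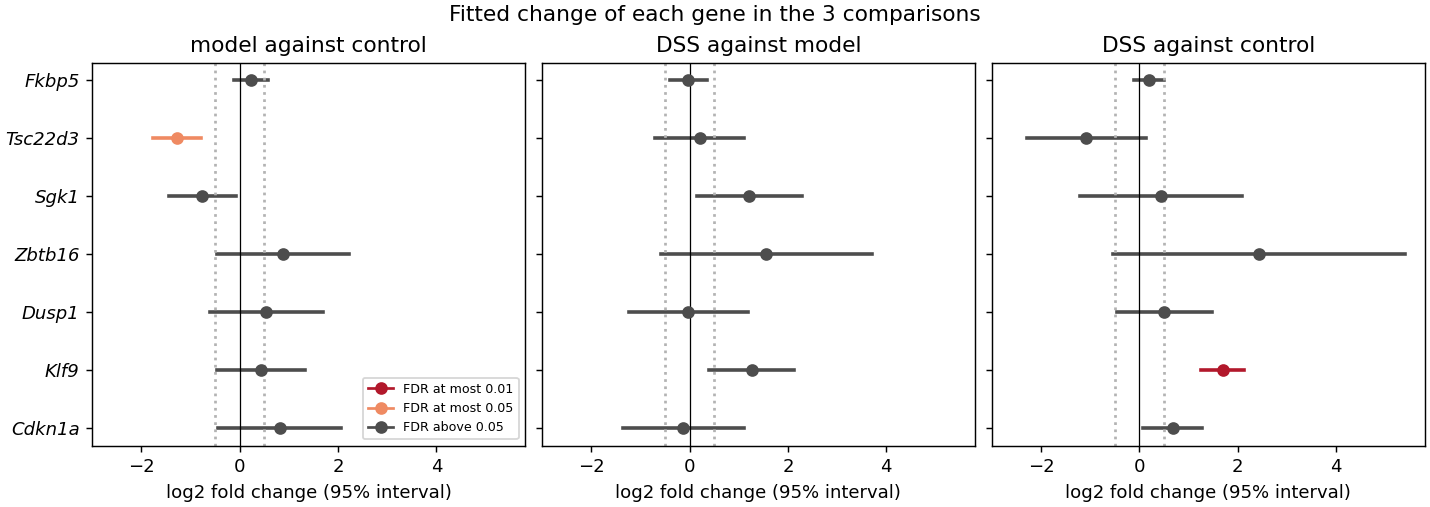
Fitted log2 fold change (x axis) of the 7 target genes in the 3 comparisons, with points for the edgeR estimates, lines for their 95% intervals and dotted lines at a log2 fold change of 0.5 in either direction. Klf9 in DSS against control (1.69) is the 1 point with an FDR of at most 0.01, Tsc22d3 in model against control (−1.28) has an FDR of at most 0.05, and the intervals of Zbtb16 are the widest in each comparison.

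By group means, the order was control, model, DSS from low to high for Zbtb16 and Klf9, and model, control, DSS for Sgk1. For Fkbp5, Dusp1 and Cdkn1a the order was control, DSS, model, and for Tsc22d3 it was model, DSS, control. Neighbours in these orders overlapped between rats, other than model and DSS for Klf9. The signs of the fitted log2 fold changes were mixed. Between control and model 5 were positive and 2 negative, and between model and DSS 4 were positive and 3 negative. Between control and DSS 6 were positive and 1 negative. The negative values between model and DSS were −0.02 for Fkbp5 and for Dusp1 and −0.12 for Cdkn1a. Each of these changed sign with some rats left out, so they give no direction.

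Rats of the same group differed widely in most of these genes. The SD within groups was 0.57 for Tsc22d3, 0.78 for Sgk1, 0.82 for both Dusp1 and Cdkn1a and 0.55 for Klf9 on the log2 scale. Between 85.5% and 99.6% of the expressed genes had a smaller SD than 6 of the 7 genes, Fkbp5 being the exception. DSS replicate 3 had the highest Tsc22d3, Zbtb16, Dusp1 and, by little, Cdkn1a and the lowest Sgk1 and Klf9 of its group. Against the control mean, its difference on the log2 scale was 3.68 for Zbtb16, 1.20 for Dusp1 and −1.07 for Sgk1. The rat was not separated from its group on the first principal component, where it scored 23.0. On the second component it scored 0.593, below DSS replicates 1 and 2 at 20.1 and 16.5.

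**Figure D3:**
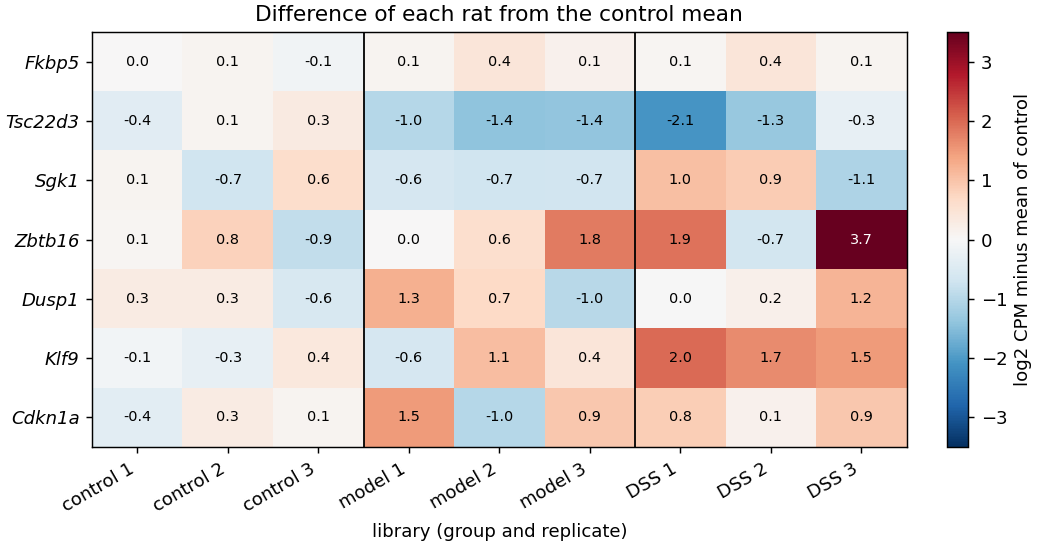
Difference in log2 CPM (colour and printed value) of each of the 9 rats (columns, by group and replicate) from the mean of the 3 control rats, for the 7 target genes (rows). Tsc22d3 is negative in all 6 rats that drank fructose, Klf9 is at least 1.48 in all 3 DSS rats, and Zbtb16 in DSS replicate 3 is the largest difference.

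The genes did not vary together from rat to rat in a way that passed a test. Over the 21 pairs of genes and 9 rats, the lowest Benjamini-Hochberg adjusted p was 0.802 for Pearson's r and 0.884 for Spearman's rho (two-sided exact permutation tests). Fkbp5 and Tsc22d3, both direct receptor targets, gave r = −0.55 (exact permutation p = 0.128, adjusted p = 0.802) and rho = −0.55 (exact permutation p = 0.133, adjusted p = 0.884). The value of r was −0.53 without the 2 rats farthest from the median of Fkbp5 and −0.16 for deviations from the group means. The rats share 3 groups, so the values over all 9 rats, and the tests on them, also carry the differences between groups. For deviations from the group means, r of the 21 pairs ran from −0.78 (Fkbp5 and Cdkn1a) to 0.42 (Tsc22d3 and Dusp1). These deviations were not tested.

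The genes whose log2 CPM followed each target gene most closely over the 9 libraries were taken from the 12831 other expressed genes, and the correlations are a description only. For Klf9 they were Sft2d2 (r = 0.988), Wwp1 (0.985) and Selenoo (0.964). For Tsc22d3 they were Proca1 (0.934), Traf3ip1 (0.929) and Rars2 (0.925), and for Fkbp5 they were Vps37c (0.956) and Bbip1 (0.920). Sgk1 was followed by Ccdc117 (0.962), S1pr2 (0.959) and AABR07036556.1 (0.930). Zbtb16 was followed by Sphk2 (0.933), Stoml1 (0.917) and Ctsf (0.906), Dusp1 by Cdipt (0.954), Arhgdia (0.948) and Prr7 (0.937), and Cdkn1a by Setd4 (0.957), Fam104a (0.955) and Vti1b (0.925). None of the 7 target genes was among the 3 closest of another. These are among the 3 highest values of 12831 for each gene, over 9 points. Some of the genes were near the floor. The counts per library were 1 to 39 for AABR07036556.1, 0 to 15 for Prr7, 4 to 24 for Vps37c and 4 to 35 for Proca1.

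Several genes of the receptor's own machinery were lower in the DSS group than in the control group. A list of 20 chaperones, co-chaperones and coregulators had 19 measured genes. This list and those below were chosen with earlier results of these data known, so their counts are a description only. In DSS against control 4 were lower and 0 higher at an FDR of 0.01, against 1.48% of all genes. At 0.05, 6 were lower and 0 higher, against 6.36%. The median log2 fold change was −0.28. Fkbp4 encodes FKBP52, the co-chaperone that takes the place of FKBP51 in the complex and favours hormone binding. Its level was 270.5, 298 and 229 CPM in the control rats, 235, 182 and 185 CPM in the model rats and 93.4, 123 and 129 CPM in the DSS rats. The DSS rats lay below all other rats, and the log2 fold change was −1.21 (SE 0.156, FDR 0.00341) against control, −0.79 (SE 0.174, FDR 0.155) against model and −0.41 (SE 0.166, FDR 0.340) for model against control. DESeq2 gave FDRs of 2.66e-10 and 0.00588 for its differences from control and from model. Fkbp5, by contrast, did not pass the test in any comparison.

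Hsp90aa1 encodes the inducible form of the chaperone HSP90. It was at 14.2, 8.56 and 7.58 CPM in control, 4.60, 6.29 and 3.08 CPM in model and 2.87, 3.51 and 2.96 CPM in DSS, with a log2 fold change of −1.71 (SE 0.252, FDR 0.00631) in DSS against control. The model rats already lay below the control rats, with −1.13 (SE 0.323, FDR 0.181), and DSS against model gave −0.57 (SE 0.295, FDR 0.716). Stip1, which links HSP70 to HSP90, fell by 1.03 (SE 0.119, FDR 0.00202) in DSS against control and by 0.77 (SE 0.125, FDR 0.0417) in model against control. The constitutive chaperones Hsp90ab1 (−0.55, FDR 0.0214) and Hspa8 (−0.63, FDR 0.0325) were lower there at an FDR of 0.05. HSP genes have near-identical copies and pseudogenes, so their counts are uncertain where the aligner could place a read in more than 1 of them.

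In model against control 17 of the 19 machinery genes had a negative log2 fold change (median −0.22). The groups did not overlap for 9 lower and 1 higher, against 21.1% of all genes. Some of the negative values rested on 1 low model rat. Ncoa2 had a model minimum of 8.86 and median of 42.8 CPM, beside 35.3 to 37.7 CPM in control. Ncor1 had a model minimum of 59.5 and median of 105 CPM, beside 93.8 to 101 CPM in control. However, edgeR called 0 at 0.01, against 0.0801% of all genes, and 1 lower at 0.05 (Stip1), against 0.601%. At an unadjusted p under 0.05 edgeR gave 6 lower and 1 higher, against 13.2%. DESeq2 called 2 lower, Stip1 among them, against 2.05%. DSS against model gave 0 calls in edgeR at either FDR, where 0.136% of all genes were called at 0.01 and 0.456% at 0.05. At an unadjusted p under 0.05 edgeR gave 1 lower, against 8.02%. DESeq2 called 1 lower (Fkbp4), against 1.18%, and the median was −0.05. The mineralocorticoid receptor gene Nr3c2, whose product also binds corticosterone, was at 4.54, 3.93 and 4.85 CPM in control, 0.989, 5.58 and 5.05 CPM in model and 6.77, 4.42 and 4.47 CPM in DSS. Its log2 fold change was −0.22, 0.46 and 0.23 in the 3 comparisons (FDR 0.889, 0.888 and 0.582), and its lowest value was in model replicate 1, the library apart on the second principal component.

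Of 8 tested genes on a list of 10 for the supply and inactivation of the hormone, edgeR gave 1 higher (Hsd11b1) and 1 lower (Hsd11b2) in DSS against control at an FDR of 0.05, where 6.36% of all genes were called. Hsd11b1, whose enzyme regenerates active corticosterone inside hepatocytes, was at 296, 524 and 494 CPM in control, 764, 509 and 583 CPM in model and 968, 755 and 1122 CPM in DSS. The log2 fold change was 1.11 (SE 0.240, FDR 0.0328) in DSS against control, 0.62 (SE 0.210, FDR 0.473) in DSS against model and 0.50 (SE 0.252, FDR 0.454) in model against control. Hsd11b2, whose enzyme inactivates the hormone and which is low in liver, was at 5.10, 6.01 and 3.79 CPM in control, 3.53, 1.28 and 1.23 CPM in model and 1.19, 2.32 and 1.87 CPM in DSS. It was lower in DSS against control, with a log2 fold change of −1.47 (SE 0.292, FDR 0.0206), and model against control gave −1.27 (SE 0.433, FDR 0.264). Both genes had no overlap between DSS and control rats, as had 30% of all genes tested. Serpina6, which encodes the corticosteroid-binding globulin of plasma, gave −0.16, 0.51 and 0.34 in model against control, DSS against model and DSS against control (FDR 0.831, 0.630 and 0.289).

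Of these 8 genes edgeR called 0 at an FDR of 0.01 in all 3 comparisons, against 0.0801%, 0.136% and 1.48% of all genes. At an unadjusted p under 0.05 it gave 1 higher and 2 lower in model against control, 1 higher in DSS against model and 2 higher and 1 lower in DSS against control, where 13.2%, 8.02% and 24.3% of all genes passed. DESeq2 called 1 higher and 1 lower in the last, against 6.09% of all genes, and 0 in the others, against 2.05% and 1.18%. The medians were 0.01, 0.17 and 0.26.

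Other liver genes known to be driven by glucocorticoids moved in both directions. Of the 42 genes on this list 38 were tested. At an FDR of 0.01 edgeR called 1 lower in model against control (Per2) and 2 higher in DSS against model (Mt1 and Mt2A). In DSS against control it called 1 higher and 1 lower (Mt1 and Per2). Over all genes tested 0.0801%, 0.136% and 1.48% were called. At an unadjusted p under 0.05 edgeR gave 5 higher and 5 lower, 3 higher and 4 lower, and 9 higher and 3 lower. The shares of all genes were 13.2%, 8.02% and 24.3%. DESeq2 called 2 lower, then 2 higher and 1 lower, then 4 higher and 1 lower, against 2.05%, 1.18% and 6.09%. The median log2 fold change was 0.28, 0.03 and 0.11 in this order. Tat, the tyrosine aminotransferase gene that is the classical hepatic target, was at 819, 870.3 and 696 CPM in control, 644, 482 and 254 CPM in model and 431, 565 and 753 CPM in DSS. All model rats lay below the control rats, with a log2 fold change of −0.79 (SE 0.304, FDR 0.318), and the values were 0.35 (SE 0.335, FDR 0.863) in DSS against model and −0.45 (SE 0.197, FDR 0.197) in DSS against control. Tdo2, the tryptophan dioxygenase gene, gave 0.13, 0.28 and 0.39 (FDR 0.851, 0.844 and 0.284).

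Pck1, the gluconeogenic carboxykinase gene, was at 731, 702.5 and 996 CPM in control, 2178, 1722 and 609.6 CPM in model and 3409, 1268 and 3702 CPM in DSS. The DSS rats lay above the control rats, and the log2 fold change of 1.78 (SE 0.420) had an FDR of 0.0613 with edgeR and 8.38e-07 with DESeq2. Against model it was 0.90 (SE 0.513, FDR 0.761), and model against control gave 0.89 (SE 0.415, FDR 0.419). G6pc, which encodes the catalytic subunit of glucose-6-phosphatase and was named after its values were seen, gave 0.48, −1.14 and −0.67 (FDR 0.722, 0.576 and 0.607). Igfbp1, an insulin-repressed target, gave −0.48, 0.44 and −0.05 (FDR 0.775, 0.918 and 0.986). Pdk4, which slows pyruvate oxidation in fasting, gave 0.63, 0.20 and 0.82 (FDR 0.130, 0.883 and 0.0947), and all its model rats lay above its control rats. Angptl4, a lipase inhibitor that also answers to fatty acids, was at 273, 106 and 224 CPM in model and 49.1, 42.8 and 53.3 CPM in DSS, and it fell by 2.05 (SE 0.323, FDR 0.0496) in DSS against model.

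The metallothioneins Mt1 and Mt2A bind zinc and are induced by metals as well as by glucocorticoids. Mt1 was at 3.45, 1.31 and 4.12 CPM in control, 5.46, 5.39 and 3.76 CPM in model and 61.9, 32.8 and 53.8 CPM in DSS. It rose by 3.35 (SE 0.278, FDR 0.00266) in DSS against model and by 4.05 (SE 0.441, FDR 0.00747) in DSS against control. Mt2A rose by 3.88 (SE 0.406, FDR 0.00880) and, at an FDR of 0.05, by 4.05 (SE 0.489, FDR 0.0126). These are related genes, and whether any reads of 1 were counted for the other was not tested, so they are not read as independent of each other.

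**Figure D4:**
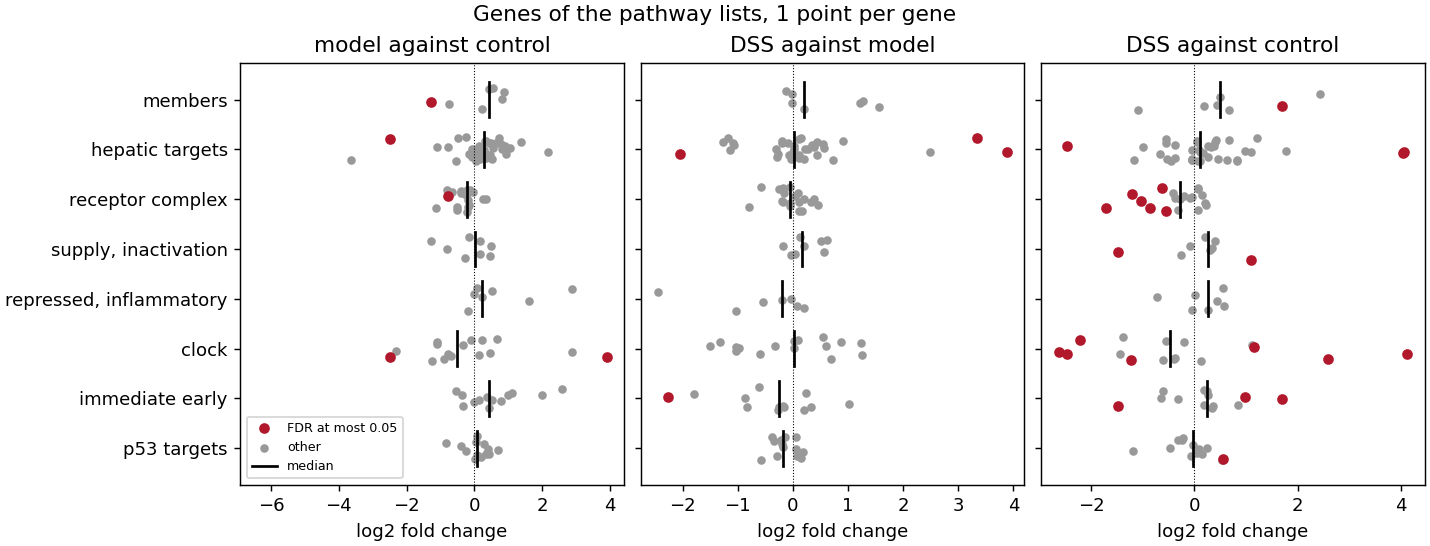
Log2 fold change (x axis, with its own range in each panel) of each tested gene of 8 lists (rows) in the 3 comparisons; red points have an FDR of at most 0.05 and a log2 fold change of at least 0.5 in size, grey points are all others, and black lines are the medians of the lists. The red points of the receptor complex all lie on the negative side, and those of the hepatic targets lie on both sides in DSS against model and in DSS against control.

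Clock genes were examined because Klf9, Per1 and Per2 belong to both the glucocorticoid response and the clock. Of 18 genes 16 were tested. At an FDR of 0.01 edgeR called 1 lower in model against control (Per2) and 0 in DSS against model. In DSS against control it called 1 higher (Npas2) and 3 lower (Per2 and Cry1 among them). Over all genes tested 0.0801%, 0.136% and 1.48% were called. The counts at an unadjusted p under 0.05 were 2 higher and 8 lower in model against control and 1 higher and 5 lower in DSS against model. They were 4 higher and 7 lower in DSS against control. The shares of all genes were 13.2%, 8.02% and 24.3%. DESeq2 called 1 higher and 3 lower, 3 lower, and 4 higher and 6 lower in the same order. Of all genes it called 2.05%, 1.18% and 6.09%. Per2 was at 80.4, 89.0 and 74.9 CPM in control, 14.4, 17.0 and 12.6 CPM in model and 15.3, 14.8 and 14.4 CPM in DSS, and it fell by 2.48 in model against control (SE 0.155, FDR 0.00176) and by 2.46 in DSS against control (SE 0.107, FDR 1.87e-05). Per1, its paralogue, gave −1.10, 0.54 and −0.55 in the 3 comparisons (FDR 0.373, 0.888 and 0.570). Further clock genes passed an FDR of 0.05: Npas2 at 3.92 (FDR 0.0111) in model against control, and Nr1d2 at 1.15 (FDR 0.0351) and Hlf at −1.22 (FDR 0.0169) in DSS against control.

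Nr1d1, which encodes the clock repressor REV-ERBα, followed the same order of groups as Klf9. It was at 8.55, 2.02 and 5.65 CPM in control, 13.3, 81.5 and 27.3 CPM in model and 105, 101 and 84.4 CPM in DSS. It rose by 4.12 (SE 0.474, FDR 0.0111) in DSS against control. In the model group both genes were lowest in replicate 1 and highest in replicate 2, and in the DSS group both were highest in replicate 1 and lowest in replicate 3. Model replicate 1 was the library apart on the second principal component. In the control group the orders differed, with Klf9 highest in replicate 3 and Nr1d1 highest in replicate 1. Klf9 and Nr1d1 were set side by side after their values were known, and the part of the clock in the level of Klf9 was not tested.

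**Figure D5:**
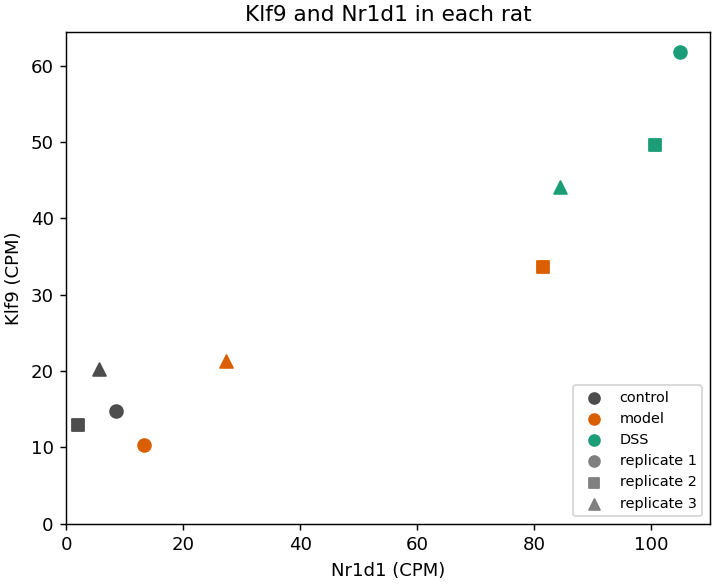
Level of Klf9 (y axis, CPM) against the level of Nr1d1 (x axis, CPM), 1 point per rat, with colour for the group and shape for the replicate number. The 3 DSS rats lie at the upper right (Nr1d1 84.4 to 105 CPM, Klf9 44.1 to 61.8 CPM), model replicate 2 lies nearest to them, and the control rats lie at the lower left.

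Markers of other liver cells were read beside these genes. The summed level was 209 to 298 CPM in control, 157 to 354 CPM in model and 215 to 294 CPM in DSS for 7 measured of 8 endothelial markers. It was 320 to 363, 269 to 373 and 322 to 428 CPM for 8 stellate cell markers, 17.0 to 23.5, 15.5 to 34.2 and 22.2 to 24.1 CPM for 6 bile duct markers, and 201 to 721, 200 to 350.4 and 205 to 338 CPM for 5 measured of 6 red blood cell genes. In the DSS group 1 of the bile duct markers, Krt7, was at 0 in all 3 rats. EdgeR called 0 genes of these 4 lists and of the leukocyte list at an FDR of 0.05 in the 3 comparisons, and DESeq2 called 0. Of all genes edgeR called 0.601%, 0.456% and 6.36% at that FDR, and DESeq2 called 2.05%, 1.18% and 6.09%. Over the 5 lists and at an unadjusted p under 0.05, edgeR gave 2 lower in model against control and 1 lower in DSS against model. In DSS against control it gave 2 higher and 3 lower. The shares of all genes were 13.2%, 8.02% and 24.3%. Among the hepatocyte markers, Apoa1 was called in DSS against control at 0.05 (log2 fold change 0.81, FDR 0.0205).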

How the data were processed

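Liver mRNA was sequenced, and the authors used HISAT2 2.0.5 for alignment (to Rnor_6.0, per the submitters' processing notes) and HTSeq 0.6.1 for unstranded counting over exons. The values they deposited are raw, whole-number counts for each gene, with no scaling. Overlapping genes on opposite strands therefore could not be told apart. The labels name the mouse as organism and the Wistar rat as strain, and the identifiers are those of rat genes. A table of assembled transcripts was not used, since its unit is not stated, and rat sequences were not used here.

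Counts were fitted with edgeR 4.0.16 in R 4.3.3 (filterByExpr, TMM, robust glmQLFit, two-sided glmQLFTest) on the 6 libraries of each comparison, with Benjamini-Hochberg adjustment over all genes tested. The thresholds, a log2 fold change of 0.5 and an FDR of 0.01, follow the study's methods. The SE is the size of the log2 fold change divided by the square root of F. CPM were computed by edgeR over all 9 libraries, and log2 CPM with a prior count of 2. Alternatives were DESeq2 1.42.0, its size factors, library size alone, no filter, at least 10 counts in every library, all 9 libraries in 1 fit, a replicate block, omission of each rat, an FDR of 0.05 and calls with any fold change. The fits were also run on data simulated with large changes and the spread that edgeR itself estimated. That run does not measure power or error for smaller changes or for an outlying library. Sample titles number the libraries within groups, and p-values measure the spread between these rats.

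The members and lists were chosen with earlier results of these data known. Named are the members, 12 further pathway genes, list genes called at an FDR of 0.05 and the 3 genes most like each member. A few genes that this rule names are not reported here. G6pc and Krt7 were added after their values were seen. The lists also hold Ep300, Abcb1a, Abcb1b, Hif3a, Mt1a, Nos2, Il6, Fkbp1b, Fkbp11, Cd79a, Pecam1 and Hba1, which were not analysed here, and G6pc1, whose gene was measured under its older symbol G6pc.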

Additional observations from a re-analysis of the deposited data

How the results depend on the processing

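Of the fitted values of the 7 target genes under the alternatives, 255 kept their direction and their side of the threshold, 13 changed sign, 2 passed the threshold in addition and 3 no longer passed it. The cause was not tested. In model against control, the count of called genes was 10, with 71 without a filter, 256 with DESeq2, 25 with all 9 libraries in 1 fit, 75 at an FDR of 0.05 and 0 to 10 with 1 rat left out. The count of target genes was 0, and 1 without a filter, with DESeq2 and at an FDR of 0.05 (Tsc22d3: −1.27 and −1.28). The hepatic list gave 1, with 2 under DESeq2 and 0 to 1 with 1 rat left out. In DSS against model, 17 genes were called, with 11 by library size alone, 38 without a filter, 147 with DESeq2, 57 at an FDR of 0.05 and 2 to 12 with 1 rat left out, and the hepatic list gave 2, with 1 by library size alone, 1 without a filter and 0 to 2 with 1 rat left out. In DSS against control, 187 genes were called, with 489 without a filter, 769 with DESeq2, 113 with all 9 libraries, 804 at an FDR of 0.05 and 86 to 132 with 1 rat left out. The count of target genes there was 1 (Klf9), with 0 when all 9 libraries were fitted (FDR 0.0365) and 0 to 1 with 1 rat left out (0 without control replicate 1). The hepatic list gave 2, with 1 without a filter, 5 with DESeq2 and 1 to 3 with 1 rat left out.

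Replicate numbers did not pair the rats: deviations of same-numbered rats correlated at −0.231 to −0.0218, and 0 of 9 libraries correlated best with their own number. With the replicate block, 0, 7 and 104 genes were called in the 3 comparisons, 0 target genes in DSS against control (Klf9 FDR 0.0115; Tsc22d3 FDR 0.0398 there and 0.180 in model against control), and 0 of the hepatic list in model against control and in DSS against model.

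Signs turned for values that had not passed the threshold, with main estimates between −0.12 (Cdkn1a in DSS against model) and 0.43 (Klf9 in model against control). With 1 rat left out, Klf9 in model against control ran from −0.023 (without model replicate 2) to 0.77. In DSS against model, Fkbp5 ran from −0.14 to 0.079, with 0.079 without model replicate 2 and 0.030 and 0.029 without DSS replicates 1 and 3. Tsc22d3 ran from −0.39 (without DSS replicate 3) to 0.52. Dusp1 ran from −0.48 to 0.48, with 0.48 and 0.035 without model replicates 1 and 2 and 0.19 and 0.13 without DSS replicates 1 and 2, and it was 0.069 with the replicate block. Cdkn1a ran from −0.56 to 0.41, with 0.41 without model replicate 1 and 0.090 without DSS replicate 2, and it was 0.12 with the replicate block. Precision was limited by the 3 rats per group and, for Zbtb16 (from 11 counts) and Cdkn1a (from 31), also by low counts.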

Other observations

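Inflammatory genes that glucocorticoids are known to repress gave no call in edgeR at an FDR of 0.01 or 0.05. In model against control, DSS against model and DSS against control, edgeR called 0.0801%, 0.136% and 1.48% of all genes at 0.01. At 0.05 it called 0.601%, 0.456% and 6.36% of all genes. At these shares, an absence of calls in a list this short does not set it apart from all genes. Of 12 listed genes 7 were tested, with median log2 fold changes of 0.23 in model against control, −0.20 in DSS against model and 0.27 in DSS against control. At an unadjusted p under 0.05 edgeR gave 2 higher, 1 lower and 2 higher in this order, against 13.2%, 8.02% and 24.3% of all genes. DESeq2 called 1 higher in model against control, against 2.05% of all genes, and 0 in the others.

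Dusp1 is an immediate early gene as well, and 13 of 14 listed genes of this kind were tested. At an FDR of 0.05 edgeR called 0 in model against control and 1 lower in DSS against model. In DSS against control it called 2 higher and 1 lower. Of all genes 0.601%, 0.456% and 6.36% were called. At an unadjusted p under 0.05 edgeR gave 5 higher, then 3 lower, then 4 higher and 2 lower. The shares of all genes were 13.2%, 8.02% and 24.3%. Fos, part of the AP-1 factor, was at 1.21, 1.31 and 1.99 CPM in control, 2.67, 3.02 and 2.09 CPM in model and 0.487, 0.432 and 0.676 CPM in DSS. It fell by 2.26 (SE 0.343, FDR 0.0434) in DSS against model and by 1.48 (SE 0.383, FDR 0.0499) in DSS against control. Junb, its partner, was at 14.3, 19.0 and 14.3 CPM in control, 128, 138 and 18.2 CPM in model and 57.8, 39.7 and 58.2 CPM in DSS. Junb rose by 1.70 (SE 0.183, FDR 0.00183) in DSS against control, and Klf6 rose there by 0.99 (SE 0.253, FDR 0.0482). The medians of the list were 0.43, −0.26 and 0.25.

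Of 14 p53 targets, listed because p53 drives Cdkn1a, 13 were tested. Tp53inp1 in DSS against control (0.55, SE 0.134, FDR 0.0413) was the 1 that passed an FDR of 0.05, against 6.36% of all genes. The medians were 0.08, −0.17 and −0.03. In the FK506-binding family, to which Fkbp5 belongs, 12 of 14 genes were tested. Fkbp4 in DSS against control was the 1 gene called at an FDR of 0.01, against 1.48% of all genes. The medians of the family were −0.02, −0.00 and 0.12.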
